A study of Mus musculus with 12 samples.

Results

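The genes described here are 50 genes of mitosis and chromosome segregation, the set of kinases, motors, kinetochore proteins and proteolysis factors that carry a cell from the end of DNA replication through division. They were selected by symbol from textbook knowledge of mitosis, with earlier results of these data known, and are 50 of the 24325 gene symbols measured. All 50 were found and all 50 passed the filter on low values. They were followed in splenic B cells of C57BL/6 mice, enriched on B220 beads and kept for 4 days with 25 µg/ml lipopolysaccharide (LPS), a bacterial product that drives B cells to divide and to mature into antibody-secreting cells. The cells were then sorted on CD138 and on a green fluorescent reporter of Prdm1, the gene of the transcription factor Blimp1. Activated B cells (ActB) lacked both signals, pre-plasmablasts (PrePB) carried only the reporter, and plasmablasts (PB) carried both. Each population came from Mzb1-/- mice (ko) and Mzb1+/+ mice (wt). Mzb1 encodes a chaperone of the endoplasmic reticulum. The mice of both genotypes were Prdm1+/gfp, so the controls also had a reporter in place of 1 Prdm1 allele. Each of the 6 groups had 2 libraries, 12 in all. The labels give no age, no pooling and no statement that replicates came from separate mice, so the p-values measure only the spread between these libraries. They also do not say in which tissues or from which stage Mzb1 was removed.

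As background, entry into mitosis is switched by the kinase Cdk1 with its A- and B-type cyclins, which Cdc25 phosphatases activate. Aurora and polo-like kinases, the chromosomal passenger complex, kinesins and the kinetochore then build the spindle and attach chromosomes, the spindle checkpoint holds Cdc20 until attachment is complete, and the anaphase-promoting complex with Cdc20 and Ube2c destroys cyclin B and securin. Many of these genes share one transcriptional programme: the DREAM complex, which contains the MuvB core, keeps them low in resting cells, and MuvB with B-Myb (Mybl2) and then Foxm1 raises them in dividing cells. Activated B cells and plasmablasts divide, whereas mature plasma cells do not, and Blimp1 is known to repress genes of proliferation.

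Each value is an FPKM, a fragment number divided by the length of the transcript and by the size of the library, so levels can be compared between genes. The 12 libraries summed to between 418966 and 581262 FPKM and held between 10180 and 10466 genes at 1 FPKM or more. Absolute depth is unknown because the files hold no counts. Mzb1 was lower in ko than in wt in each population, with log2 changes of -1.72, -3.50 and -4.08 in ActB, PrePB and PB, and its transcript was still measured in ko. The summed plasma cell markers ran from 191 to 293 FPKM in ActB, from 8610 to 11715 FPKM in PrePB and from 18979 to 25764 FPKM in PB, while the summed B cell markers ran from 1959 to 4214 FPKM over all libraries. Markers of other cells were low in every library, at most 15.6 FPKM summed for T cells, 39.6 for macrophages and granulocytes, 24.9 for dendritic cells, 6.44 for natural killer cells and 0.424 for erythroid cells. Cd3e, Ncr1, S100a9 and Hbb-b1, defining genes of 4 of those lists, did not exceed 0.138 FPKM in any library. Other genes of the lists were measured. Of the T cell markers, Cd3g ran from 0.207 to 0.808 FPKM in ActB and from 3.19 to 8.17 FPKM in PB. Lck ran from 4.43 to 9.70 FPKM over all libraries. The natural killer marker Eomes reached at most 0.0238 FPKM in ActB and ran from 4.40 to 6.01 FPKM in PB. The dendritic cell marker Flt3 ran from 6.90 to 22.2 FPKM over all libraries. Of the macrophage markers, Cd68 ran from 8.27 to 10.2 FPKM in ActB, from 13.2 to 22.0 FPKM in PrePB and from 27.1 to 35.5 FPKM in PB. Adgre1 ran from 7.84 to 28.2 FPKM in ActB and up to 1.58 FPKM in PrePB and 0.844 FPKM in PB. The part of these markers in the results was not tested. Replicate 1 of wt stood apart in all 3 populations: Xist, expressed from the inactive X chromosome, measured 81.4, 35.3 and 33.3 FPKM there and at most 0.389 FPKM in the other 9 libraries. Ddx3y, a gene of the Y chromosome, measured at most 0.0479 FPKM there and 15.7 to 22.0 FPKM in the other 9. By both genes wt replicate 1 was female and the other libraries, with all of ko, were male. Sex was thus not balanced between the genotypes, and its part was not tested. The low values of the files fell into a pair of patterns, one in 8 libraries and the other in ActB ko replicate 2, PrePB ko replicate 2 and both PB ko libraries. In PB this pattern and the genotype cannot be told apart.

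The promoters are shown first, because a pair of short motifs stood in many of them. RefSeq windows of 300 bases, 250 before and 50 after the annotated start (GRCm38.p6), were matched for 40 of the 50 genes. Aurkb, Ccna2, Cdc23, Cdc25c, Foxm1, Incenp, Kif20a, Smc4, Spc24 and Tpx2 had no entry. A cell cycle homology region of the letters TTTGAA, the element that MuvB contacts, was searched on both strands, as were the CCAAT box, which NF-Y contacts, and an E2F-type site, TTTNGCGC. TTTGAA stood in the windows of 29 of the 40 genes (72.5%), against 20.2% of all 27025 genes with a window. CCAAT stood in 30 of the 40 (75%), against 41.1% of all genes. Both stood in 26 of the 40 (65%), against 7.97% of all genes, and TTTGAA no more than 100 bases before the start or after it in 27 of the 40 (67.5%), against 9.23%. TTTNGCGC stood in 3 of the 40 genes (7.5%), against 1.57%. Among the 40 genes the median first base of TTTGAA was at position -10 relative to the start and that of CCAAT at -71. A match is a run of letters and not evidence of binding.

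Below are 6 of these windows, 5′ to 3′ along the gene, with TTTGAA and CCAAT in capitals on either strand, so that TTCAAA and ATTGG mark the opposite strand; overlapping matches run together, as in CCAATTGG. Cdc25b, Cdc20 and Ube2c were the more abundant in PB than in ActB, Kif23 and Mybl2 the less abundant, and Ccnb2 was not called in any comparison as deposited. The Cdc25b window (chr2:131186698-131186997, plus strand) holds CCAAT letters without TTTGAA, that of Mybl2 (chr2:163054385-163054684, plus strand) holds neither, and those of Cdc20 (chr4:118437294-118437593, minus strand), Ube2c (chr2:164769679-164769978, plus strand), Kif23 (chr9:61946750-61947049, minus strand) and Ccnb2 (chr9:70421505-70421804, minus strand) hold both.
Cdc25b: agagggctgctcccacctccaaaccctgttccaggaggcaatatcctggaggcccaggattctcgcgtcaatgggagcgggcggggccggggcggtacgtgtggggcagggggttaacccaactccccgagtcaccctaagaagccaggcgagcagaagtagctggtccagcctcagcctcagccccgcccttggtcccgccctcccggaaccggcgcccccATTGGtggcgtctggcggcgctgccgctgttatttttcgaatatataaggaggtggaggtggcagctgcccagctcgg
Cdc20: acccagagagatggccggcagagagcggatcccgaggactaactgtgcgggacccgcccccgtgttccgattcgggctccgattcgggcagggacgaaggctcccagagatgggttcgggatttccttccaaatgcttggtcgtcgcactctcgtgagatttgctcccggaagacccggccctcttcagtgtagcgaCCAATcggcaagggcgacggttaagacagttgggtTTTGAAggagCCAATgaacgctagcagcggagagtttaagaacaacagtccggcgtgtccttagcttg
Ube2c: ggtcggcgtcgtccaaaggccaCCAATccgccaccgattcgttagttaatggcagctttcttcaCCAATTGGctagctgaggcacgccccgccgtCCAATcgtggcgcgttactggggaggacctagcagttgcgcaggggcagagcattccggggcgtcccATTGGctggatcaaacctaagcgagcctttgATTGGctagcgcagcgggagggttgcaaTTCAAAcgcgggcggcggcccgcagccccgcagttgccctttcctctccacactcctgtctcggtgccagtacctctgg
Kif23: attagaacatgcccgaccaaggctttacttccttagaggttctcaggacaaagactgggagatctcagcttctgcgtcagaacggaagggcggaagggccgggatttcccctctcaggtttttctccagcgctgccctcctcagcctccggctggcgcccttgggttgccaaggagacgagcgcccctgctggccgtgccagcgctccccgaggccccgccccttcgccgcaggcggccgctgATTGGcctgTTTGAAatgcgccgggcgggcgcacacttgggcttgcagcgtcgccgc
Mybl2: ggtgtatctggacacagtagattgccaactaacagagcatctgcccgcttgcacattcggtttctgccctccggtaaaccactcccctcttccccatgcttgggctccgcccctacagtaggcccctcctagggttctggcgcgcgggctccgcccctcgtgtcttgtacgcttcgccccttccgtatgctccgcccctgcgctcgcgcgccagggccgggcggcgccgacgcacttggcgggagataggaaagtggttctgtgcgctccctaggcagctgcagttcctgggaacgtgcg
Ccnb2: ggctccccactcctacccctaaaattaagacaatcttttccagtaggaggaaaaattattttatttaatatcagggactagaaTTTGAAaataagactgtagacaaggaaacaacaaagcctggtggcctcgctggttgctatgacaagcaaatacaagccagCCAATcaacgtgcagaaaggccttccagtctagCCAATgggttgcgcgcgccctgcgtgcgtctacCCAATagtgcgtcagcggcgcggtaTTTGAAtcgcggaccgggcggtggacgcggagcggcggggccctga
The genes with TTTGAA and those without it did not fall on separate sides of the changes described next. In wt PB against ActB, 5 of the 29 genes with the letters were called higher and 3 lower, with a median log2 change of -0.04, and 2 of the 11 without them were called higher and 1 lower, with a median of -0.16. In ko the counts were 6 higher and 5 lower of 29, with a median of 0.06, and 2 higher and 1 lower of 11, with a median of -0.20. This split was not tested.

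Transcripts of the mitosis genes were abundant in all 3 populations. Their summed FPKM ran from 2153 to 2470 in ActB, from 2489 to 2843 in PrePB and from 2349 to 2662 in PB. As a share of total FPKM they ran from 0.466% to 0.574% in ko and from 0.511% to 0.584% in wt ActB. In PrePB the share ran from 0.438% to 0.601% in ko and from 0.502% to 0.529% in wt. In PB it ran from 0.415% to 0.504% in ko and from 0.427% to 0.429% in wt. In wt the share was lower in PB than in ActB without overlap, while the summed FPKM, at 2439 and 2483 in PB and 2447 and 2305 in ActB, overlapped. The total FPKM was 568648 and 581262 in wt PB and 418966 and 451288 in wt ActB. The lower share thus came with a higher total and not with a lower sum. The median mitosis gene lay between the 73.8th and the 81.8th percentile of the genes tested in each library. Levels spanned from 3.59 FPKM for Anln in an ActB ko library to 239.8 FPKM for Ube2c in a PB ko library. In bulk RNA, the share of dividing cells and the transcript per dividing cell cannot be told apart. Over all 12 libraries, the lowest to highest value of a mitosis gene spanned a median of 0.53 on the log2 scale, where all genes tested spanned a median of 0.87, and 43 of the 50 (86%) spanned less than 1, against 58.5% of all genes. The narrowest span was that of Aurkb, at 0.23, and the widest that of Cdc25b, at 1.86.

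**Figure D1:**
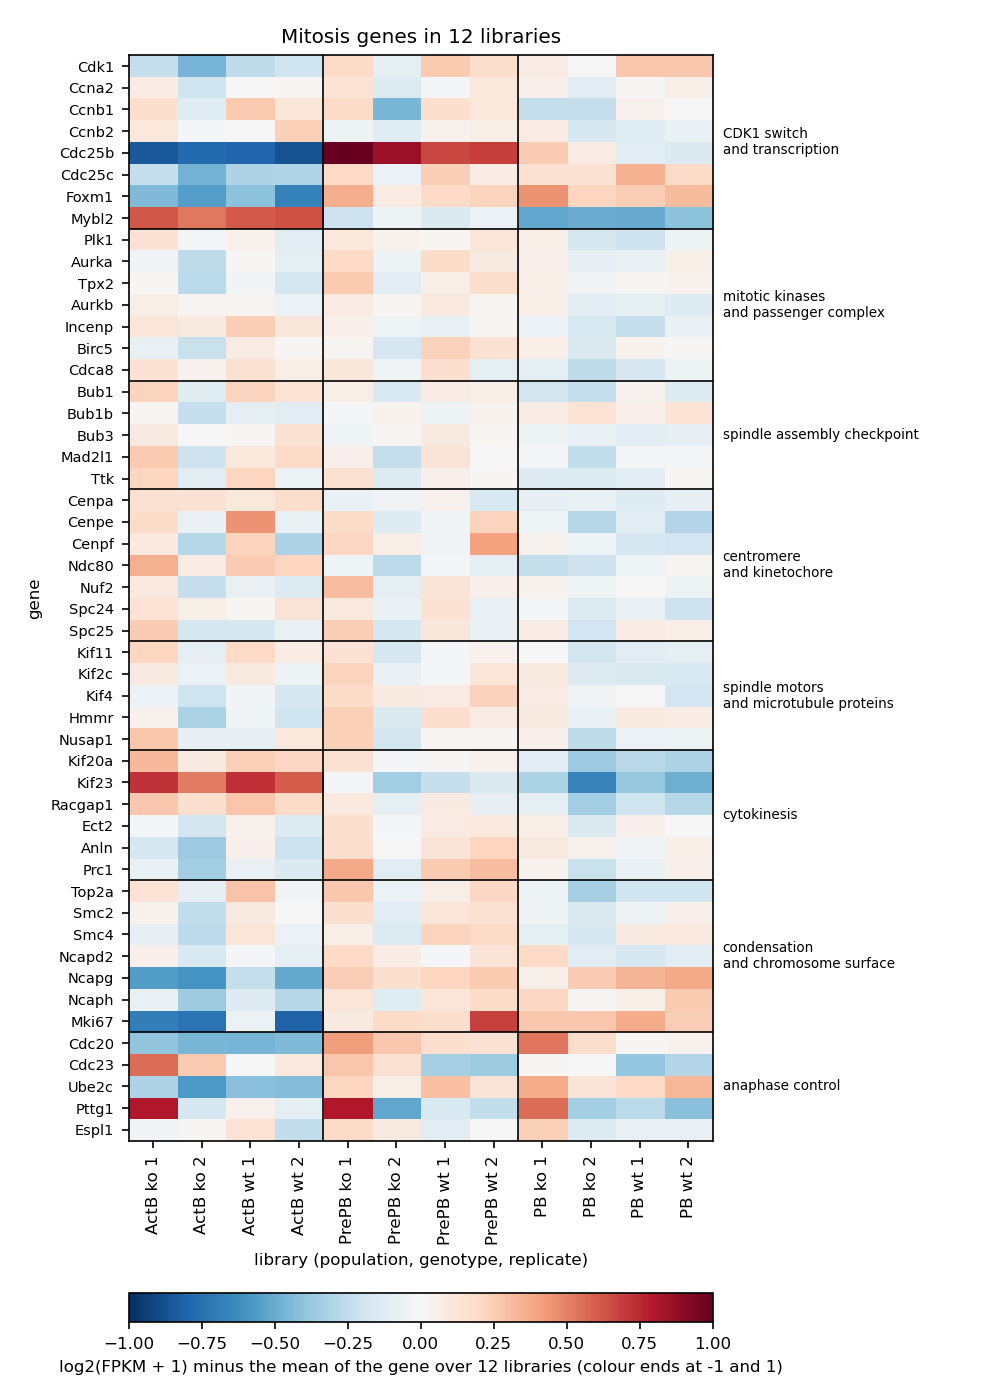
Each row is a mitosis gene, grouped by role, and each column a library, ordered by population with ko left of wt; colour gives log2(FPKM + 1) minus the mean of that gene over the 12 libraries. Most rows are pale, and Cdc25b, Foxm1, Mybl2, Kif23, Ncapg, Mki67, Cdc20 and Ube2c carry the strongest differences between populations, with Pttg1 high only in the ko replicate 1 columns.

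Between populations, 21 of the 50 mitosis genes passed the test in at least 1 comparison, where 62.2% of all genes passed in ko PB against ActB alone. Cdc25b, Foxm1, Ncapg, Cdc20 and Ube2c moved up and Mybl2 and Kif23 moved down in PrePB and PB against ActB in both genotypes. Values were compared as log2(FPKM + 1) with limma, and a call was a p below 0.05 after Benjamini-Hochberg adjustment over the 11069 genes tested. In PB against ActB, 19 of the 50 were called in ko (10 higher and 9 lower), where 62.2% of all genes were called (31.2% higher and 30.9% lower). In wt, 16 of the 50 were called (9 higher and 7 lower), where 62% of all genes were called (31% higher and 31% lower). All 16 genes called in wt were called in the same direction in ko. With each library scaled instead to an equal total of genes other than small RNA genes (equal totals), 6 were higher and 21 lower in ko, where 21.9% of all genes were higher and 46.3% lower. In wt 3 were then higher and 30 lower, where 19.2% of all genes were higher and 52.4% lower. These shares also stand beside the counts with equal totals given below for PB against ActB in each role. In PrePB against ActB, 14 were called in ko (10 higher and 4 lower; 54.2% of all genes, 27.1% higher and 27% lower) and 14 in wt (10 higher and 4 lower; 53.4% of all genes, 27.1% higher and 26.3% lower), and 8 higher (Cdk1, Cdc25b, Cdc25c, Foxm1, Ncapg, Mki67, Cdc20 and Ube2c) and 3 lower (Mybl2, Ndc80 and Kif23) in both genotypes. In PB against PrePB, Cdc25b and Mybl2 were the 2 genes called, both lower, in ko (10.8% of all genes, 6.57% higher and 4.24% lower) and in wt (8.73% of all genes, 5.02% higher and 3.7% lower). The other 29 genes were called in none of these 6 comparisons. The share called among the mitosis genes was below that among all genes in each comparison as deposited, and the difference was not tested.

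**Figure D2:**
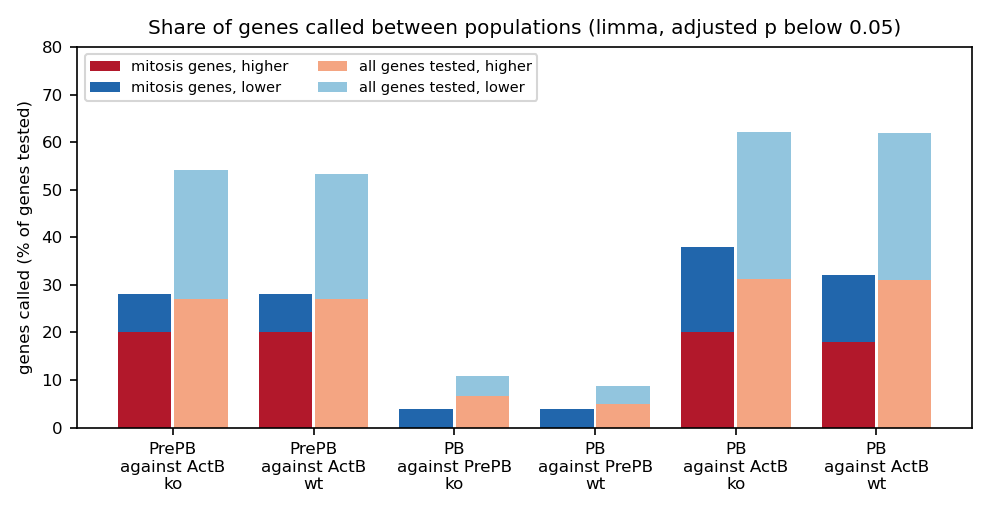
Bars give the percentage of the 50 mitosis genes (dark) and of all 11069 genes tested (pale) called higher (red) or lower (blue) at an adjusted p below 0.05 in each comparison of populations, ko left of wt. The bar of the mitosis genes is the shorter in all 6 comparisons, and in PB against PrePB it holds only lower calls.

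As deposited, the interval of the change held no change beyond 1.5-fold for most of the 50 genes. In PB against ActB the 95% interval lay within 1.5-fold in either direction for 31 mitosis genes (62%) in ko and 33 (66%) in wt. Of all genes, 32.4% had such an interval in each genotype. This share depends on the size of the changes as well as on the width of the intervals. In PrePB against ActB it did so for 35 (70%) in each genotype, against 38.5% of all genes in ko and 39.0% in wt. The median log2 change of the 50 genes in PB against ActB was -0.01 in ko and -0.07 in wt, and that of all genes -0.01 in each. Within each genotype the highest group mean was in PrePB for 21 genes in ko and 22 in wt, in ActB for 21 in ko and 20 in wt, and in PB for 8 in each. All values of this paragraph up to here are as deposited. With equal totals the wt change in PB against ActB was itself beyond 1.5-fold for some genes, such as Bub1 (-0.61) and Kif11 (-0.64). Intervals under that scaling are not given.

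**Figure D3:**
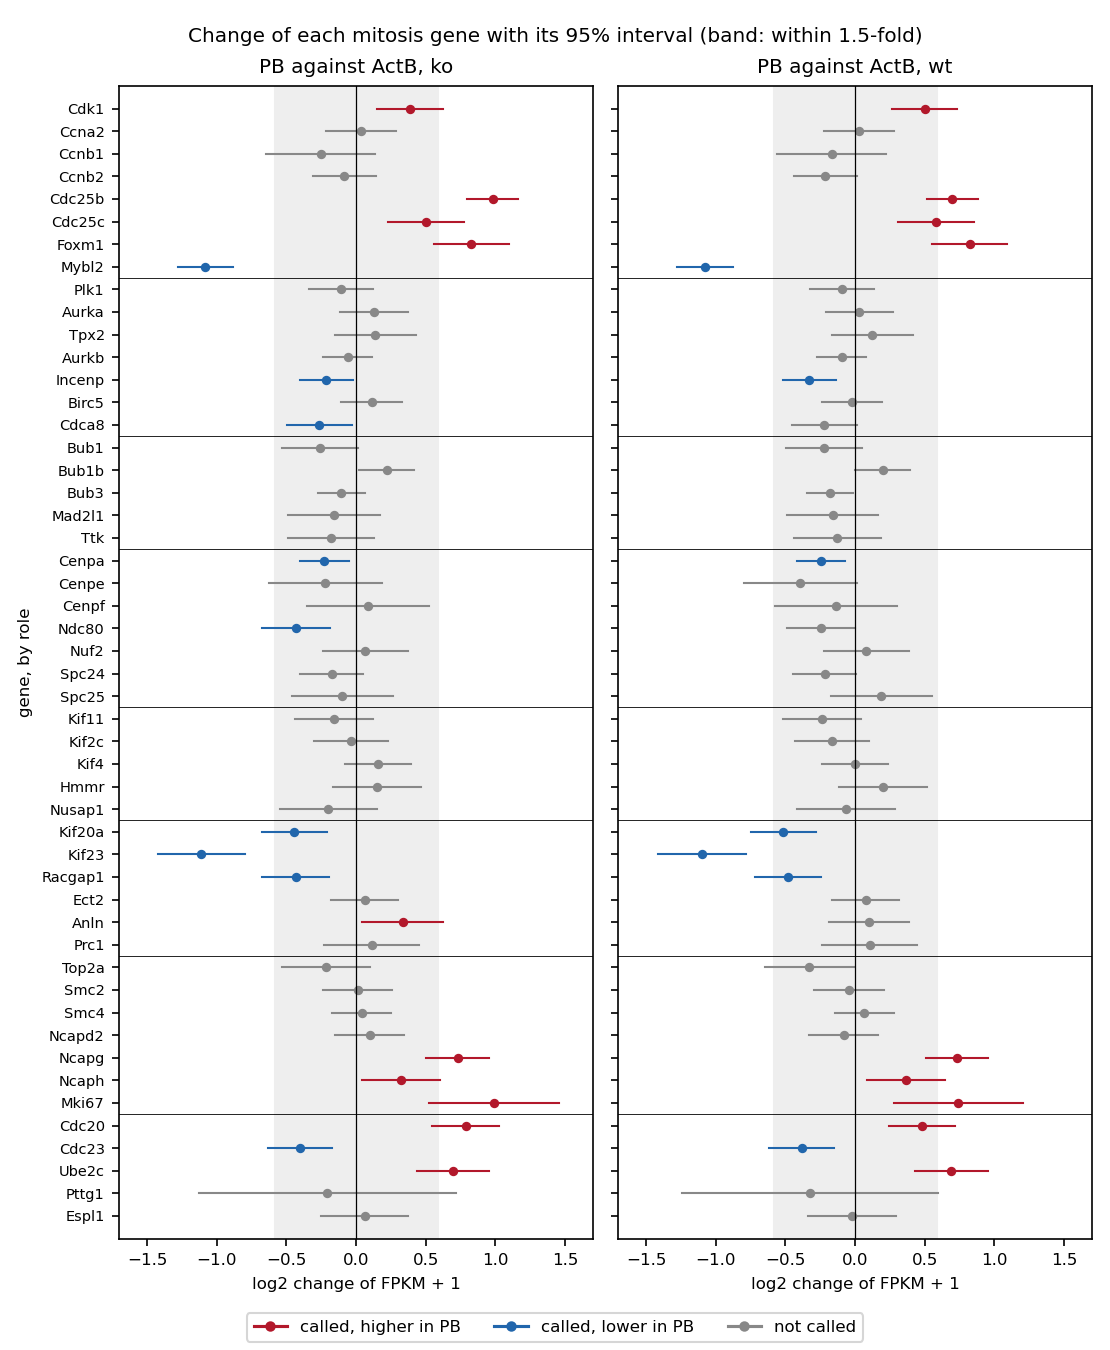
Points give the log2 change of FPKM + 1 in PB against ActB for each of the 50 genes in ko (left) and wt (right) and lines its 95% interval from limma; the grey band spans 1.5-fold either way. The 16 genes called in wt take the same side in ko, and Mybl2 and Kif23, at -1.08 and -1.11 in ko and -1.08 and -1.10 in wt, lie farthest to the left.

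Among the 8 genes of the Cdk1 switch and its transcription factors, 4 were higher and 1 lower in PB than in ActB, in ko and in wt alike. Cdc25b, a phosphatase that activates Cdk1 at mitotic entry, moved the most of all 50 genes. It measured 49.5 and 51.8 FPKM in ko and 51.3 and 48.6 FPKM in wt ActB, 179 and 163 FPKM in ko and 143 and 145 FPKM in wt PrePB, and 107 and 94.9 FPKM in ko and 82.5 and 80.7 FPKM in wt PB. The 3 populations did not overlap in either genotype, and PrePB was the highest. The log2 change in PrePB against ActB was 1.73 in ko (SE 0.08, limma adjusted p = 5.11e-08) and 1.51 in wt (SE 0.08, adjusted p = 1.32e-07), and that in PB against PrePB was -0.76 in ko (adjusted p = 0.000612) and -0.81 in wt (adjusted p = 0.000384). Cdc25b was the only mitosis gene called in all 12 fits that left out a single library, in each of the 6 comparisons of populations.

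Cdk1 itself measured 41.1 and 35.1 FPKM in ko and 40.7 and 42.2 FPKM in wt ActB, 55.6 and 45.5 in ko and 58.4 and 55.2 in wt PrePB, and 51.5 and 48.5 in ko and 59.0 and 58.9 in wt PB. It was higher in PB than in ActB by 0.39 in ko (SE 0.11, limma adjusted p = 0.00819) and 0.50 in wt (SE 0.11, adjusted p = 0.00182) on the log2 scale. In ko the call was lost without ActB replicate 2, at 0.27 with an adjusted p of 0.0761, and without PB replicate 1, at 0.34 with an adjusted p of 0.0521. Cdc25c, the related phosphatase, was higher in PB than in ActB by 0.50 in ko (adjusted p = 0.00453) and 0.58 in wt (adjusted p = 0.00186), at a level of 13.1 to 15.3 FPKM in PB and 8.18 to 9.88 FPKM in ActB. With equal totals its change was 0.23 in ko (adjusted p = 0.177) and 0.20 in wt (adjusted p = 0.228). The genes of the cyclin partners of Cdk1, Ccna2, Ccnb1 and Ccnb2, were called in none of the 6 comparisons as deposited. With equal totals Ccnb1 and Ccnb2 were called lower in PB than in ActB in both genotypes, and Ccna2 in wt. With quantile normalization Ccnb2 was called lower in wt. Ccnb1 ran from 9.91 to 12.3 FPKM in PB and from 10.8 to 14.4 FPKM in ActB, Ccna2 from 84.7 to 107 FPKM over all libraries and Ccnb2 from 65.6 to 86.9 FPKM.

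The 2 transcription factors of the programme moved in opposite directions. Foxm1, which acts late in the programme, measured 22.8 and 21.0 FPKM in ko and 23.3 and 19.2 FPKM in wt ActB, 40.5 and 33.2 in ko and 36.0 and 36.7 in wt PrePB, and 43.0 and 36.5 in ko and 37.3 and 39.2 in wt PB. Mybl2, the gene of B-Myb, which joins MuvB before Foxm1, measured 24.2 and 22.7 FPKM in ko and 24.1 and 24.5 FPKM in wt ActB, 13.2 and 14.9 in ko and 13.9 and 14.8 in wt PrePB, and 10.5 and 10.6 in ko and 10.6 and 11.4 in wt PB. ActB was apart from the other populations for both genes, as the lowest for Foxm1 and the highest for Mybl2. In PB against ActB the log2 change of Foxm1 was 0.83 in ko (SE 0.12, limma adjusted p = 0.000156) and 0.82 in wt (SE 0.12, adjusted p = 0.000159). That of Mybl2 was -1.08 in ko and in wt (SE 0.09, adjusted p = 1.81e-06 in each). Mybl2 was also lower in PB than in PrePB, with log2 changes of -0.38 in ko (adjusted p = 0.0239) and -0.35 in wt (adjusted p = 0.037). Those last calls were weak: in wt the adjusted p passed the threshold in 6 of 12 fits that left out a library and in ko in 8 of 12, with log2 changes from -0.40 to -0.30 in wt and from -0.46 to -0.30 in ko.

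Of the 7 genes of the mitotic kinases and the chromosomal passenger complex, 2 were lower in PB than in ActB in ko and 1 in wt as deposited. With equal totals 4 were lower in ko (Plk1, Aurkb, Incenp and Cdca8) and 6 in wt (these and Aurka and Birc5). As deposited, Plk1 (37.6 to 48.4 FPKM), Aurka (38.8 to 53.4 FPKM), its activator Tpx2 (38.9 to 56.9 FPKM) and Aurkb (63.3 to 74.3 FPKM) were called in no comparison, and each had a 95% interval within 1.5-fold in PB against ActB in both genotypes, as did all 7 genes of this group. Birc5, which encodes survivin and was the most abundant of the group, measured 137 and 118 FPKM in ko and 134 and 132 FPKM in wt PB, against 124 and 112 FPKM in ko and 138 and 132 FPKM in wt ActB, with a log2 change of 0.11 in ko (limma adjusted p = 0.342) and -0.02 in wt (adjusted p = 0.850). Incenp, the scaffold of the complex, measured 51.4 and 48.1 FPKM in ko and 45.6 and 51.1 FPKM in wt PB, against 58.4 and 57.2 FPKM in ko and 63.9 and 58.0 FPKM in wt ActB. It was lower in PB, with log2 changes of -0.21 in ko (SE 0.09, adjusted p = 0.04996) and -0.33 in wt (SE 0.09, adjusted p = 0.0066). The ko call held in 2 of 12 fits without a library; the wt call was lost without ActB replicate 1, at -0.26 with an adjusted p of 0.0533, and without PB replicate 1, at -0.25 with an adjusted p of 0.0684. Cdca8, which encodes borealin, was called lower in PB in ko, at -0.26 (adjusted p = 0.0471, in 3 of 12 fits without a library), and was -0.22 in wt (adjusted p = 0.0883).

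As deposited, none of the 5 spindle checkpoint genes was called between populations in either genotype by limma. At an unadjusted p below 0.05, Bub1b passed in ko and Bub3 in wt, each for PB against ActB. All 5 had, as deposited, a 95% interval within 1.5-fold in each of the 6 comparisons. Bub3, the most abundant, measured 84.4 and 83.1 FPKM in ko and 80.6 and 82.6 FPKM in wt PB, against 93.0 and 87.4 FPKM in ko and 88.3 and 96.7 FPKM in wt ActB. The libraries of PB lay below those of ActB, and the log2 change was -0.11 in ko (limma adjusted p = 0.242) and -0.18 in wt (adjusted p = 0.0598); without ActB wt replicate 1 the wt value was -0.24 with an adjusted p of 0.0355. With quantile normalization Bub3 was called lower in both genotypes. With equal totals Bub1, Bub3, Mad2l1 and Ttk were called lower in both, by log2 changes of -0.61, -0.59, -0.57 and -0.50 in wt. Bub1b, which encodes BubR1, ran from 52.4 to 55.7 FPKM in PB and from 42.7 to 51.0 FPKM in ActB, Mad2l1 from 33.2 to 47.6 FPKM over all libraries, and the kinases Bub1 and Ttk from 13.8 to 19.4 FPKM and from 9.31 to 12.1 FPKM.

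Of the 7 centromere and kinetochore genes, 2 were lower in PB than in ActB in ko and 1 in wt. With equal totals 3 were lower in ko (Cenpa, Ndc80 and Spc24) and 4 in wt (these and Cenpe). Cenpa, the histone H3 variant that marks centromeres, measured 91.8 and 92.4 FPKM in ko and 88.9 and 91.5 FPKM in wt PB, against 108 and 108 FPKM in ko and 104 and 109.6 FPKM in wt ActB. The groups did not overlap, and the difference was small, -0.23 in ko (SE 0.08, limma adjusted p = 0.0269) and -0.24 in wt (SE 0.08, adjusted p = 0.0195). The ko call held in 8 of 12 fits without a library and the wt call in 9 of 12, with changes from -0.23 to -0.22 in ko and from -0.28 to -0.21 in wt. Ndc80, the microtubule-binding subunit of the Ndc80 complex, measured 15.8 and 16.1 FPKM in ko and 18.2 and 19.1 FPKM in wt PB, against 24.2 and 19.8 FPKM in ko and 22.6 and 21.9 FPKM in wt ActB. It was called in ko (-0.43, adjusted p = 0.00541; -0.29 with an adjusted p of 0.0587 without ActB replicate 1) and not in wt (-0.24, adjusted p = 0.0754), and the difference between the genotypes did not pass the interaction test. The other subunits of that complex, Nuf2, Spc24 and Spc25, were not called as deposited, and neither were Cenpe, a kinetochore kinesin, and Cenpf.

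As deposited, the 5 spindle motors and microtubule proteins held 1 call, Kif4, higher in PrePB than in ActB in ko by 0.27 (limma adjusted p = 0.0498), which held in 2 of 12 fits without a library; all 5 had a 95% interval within 1.5-fold in each of the 6 comparisons. Kif11, the motor that pushes spindle poles apart, measured 36.7 and 32.3 FPKM in ko and 33.9 and 34.5 FPKM in wt PB, against 43.0 and 34.4 FPKM in ko and 42.4 and 38.9 FPKM in wt ActB. Nusap1, which bundles spindle microtubules, measured 40.4 and 32.6 FPKM in ko and 37.5 and 37.7 FPKM in wt PB, against 47.6 and 36.8 FPKM in ko and 36.8 and 42.0 FPKM in wt ActB. The libraries overlapped except for Kif11 in wt, and the log2 changes were -0.16 and -0.20 in ko (adjusted p = 0.301 and 0.296) and -0.24 and -0.06 in wt (adjusted p = 0.121 and 0.746). With equal totals Kif11 and Nusap1 were called lower in PB than in ActB in both genotypes, and Kif2c and Kif4 in wt. Kif2c ran from 16.1 to 21.0 FPKM over all libraries and Hmmr from 24.7 to 36.7 FPKM.

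Of the 6 cytokinesis genes, Kif23, Racgap1 and Kif20a were lower in PB than in ActB in both genotypes. Kif23 and Racgap1 encode both subunits of centralspindlin, the complex that gathers the midzone microtubules between separating chromosomes. Kif23 measured 34.4 and 29.7 FPKM in ko and 34.5 and 31.5 FPKM in wt ActB, 20.2 and 15.8 in ko and 17.3 and 18.4 in wt PrePB, and 16.2 and 12.5 in ko and 15.5 and 14.3 in wt PB. Racgap1 measured 52.6 and 48.5 FPKM in ko and 52.9 and 49.8 FPKM in wt ActB, 46.6 and 40.6 in ko and 46.1 and 40.8 in wt PrePB, and 40.5 and 34.0 in ko and 37.7 and 35.3 in wt PB. For both genes every PB library was below every ActB library. Both genes were already apart from ActB in PrePB, though Racgap1 was not called there. Kif23 fell by 1.11 in ko (SE 0.14, limma adjusted p = 5.07e-05) and by 1.10 in wt (SE 0.14, adjusted p = 5.51e-05) in PB against ActB on the log2 scale, and Racgap1 by 0.43 in ko (SE 0.11, adjusted p = 0.0048) and by 0.48 in wt (SE 0.11, adjusted p = 0.0026). Without PB ko replicate 2 the change of Racgap1 in ko was -0.31 with an adjusted p of 0.0514. Kif20a, a midzone kinesin that carries the passenger complex, fell by 0.44 in ko (adjusted p = 0.00381) and by 0.52 in wt (adjusted p = 0.00148). The other 3 genes were not called lower in PB than in ActB, as deposited or with equal totals. Ect2, the exchange factor that Racgap1 binds, measured 13.9 to 17.9 FPKM and was called in no comparison. Prc1, the microtubule bundler of the midzone, was called higher in wt PrePB than in ActB (0.40, adjusted p = 0.0493, in 4 of 12 fits without a library), and Anln was called higher in ko PB than in ActB (0.34, adjusted p = 0.0446, in 3 of 12 fits).

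Of the 7 genes of condensation and the chromosome surface, Ncapg, Ncaph and Mki67 were higher in PB than in ActB in both genotypes as deposited and none was called lower. With equal totals Ncapg and Mki67 were higher and Top2a lower in ko, and Ncapg was higher and Top2a, Smc2, Smc4 and Ncapd2 lower in wt. Ncapg, a subunit of condensin I, measured 21.7 and 21.1 FPKM in ko and 27.3 and 22.4 FPKM in wt ActB, 38.6 and 36.4 in ko and 37.7 and 39.0 in wt PrePB, and 33.7 and 38.8 in ko and 41.2 and 42.4 in wt PB. It was higher in PB than in ActB by 0.73 in ko (SE 0.10, limma adjusted p = 0.000102) and in wt (SE 0.10, adjusted p = 9.89e-05). Ncaph, another condensin I subunit, was higher by 0.32 in ko (adjusted p = 0.0442, in 6 of 12 fits without a library) and 0.37 in wt (adjusted p = 0.0258, in 10 of 12). Its change with equal totals was 0.03 in ko and -0.04 in wt, and it was not called under that scaling or quantile normalization. The third such subunit, Ncapd2, and the ATPases of both condensins, Smc2 and Smc4, were called in no comparison as deposited, at 82.1 to 106, 32.7 to 43.6 and 52.6 to 73.9 FPKM.

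Mki67, the gene of the proliferation antigen Ki-67, which coats mitotic chromosomes, measured 65.9 and 63.6 FPKM in ko and 103 and 60.7 FPKM in wt ActB, 114 and 122 in ko and 121 and 172 in wt PrePB, and 129 and 129 in ko and 139 and 127 in wt PB. ActB was the lowest population in both genotypes, with its wt libraries far apart. In PrePB against ActB the log2 change was 0.86 in ko (adjusted p = 0.00543) and in wt (adjusted p = 0.00531), and without PrePB wt replicate 2 it was 0.61 in wt with an adjusted p of 0.0558. The change in PB against ActB was 0.99 in ko (SE 0.21, limma adjusted p = 0.00188) and 0.74 in wt (SE 0.21, adjusted p = 0.0102). In wt it was 0.37 with an adjusted p of 0.0946 without ActB replicate 2 and 0.68 with an adjusted p of 0.0560 without PB replicate 1. Top2a, the topoisomerase that untangles sister chromatids, measured 130.1 and 107 FPKM in ko and 118 and 117 FPKM in wt PB, against 148 and 128 FPKM in ko and 165 and 133 FPKM in wt ActB. It did not pass in ko (-0.22, adjusted p = 0.208) or in wt (-0.33, adjusted p = 0.0679). In wt it was -0.48 with an adjusted p of 0.0298 without ActB replicate 2, and it was called lower there with quantile normalization.

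The anaphase group held 2 genes that were higher and 1 that was lower in PB than in ActB in each genotype. With equal totals 0 were higher in wt. Cdc20, the activator of the anaphase-promoting complex, measured 92.3 and 88.0 FPKM in ko and 87.8 and 89.0 FPKM in wt ActB, 163 and 147 in ko and 136 and 135 in wt PrePB, and 177 and 138 in ko and 122 and 125 in wt PB. Ube2c, the ubiquitin-conjugating enzyme that works with this complex and the most abundant of the 50 genes, measured 149 and 124 FPKM in ko and 139 and 137 FPKM in wt ActB, 215 and 193 in ko and 229 and 203 in wt PrePB, and 239.8 and 203 in ko and 213 and 234 in wt PB. ActB did not overlap with the later populations for either gene. In PB against ActB, Cdc20 was higher by 0.79 in ko (SE 0.11, limma adjusted p = 8.79e-05) and 0.48 in wt (SE 0.11, adjusted p = 0.00267), and Ube2c by 0.69 in ko (SE 0.12, adjusted p = 0.000415) and in wt (SE 0.12, adjusted p = 0.000418). Cdc23, a subunit of the complex itself, was lower, with log2 changes of -0.40 in ko (adjusted p = 0.00606) and -0.38 in wt (adjusted p = 0.00797), and lost its call without ActB ko replicate 1 (-0.26, adjusted p = 0.0659), without ActB wt replicate 2 (-0.33, adjusted p = 0.0535) and without PB wt replicate 1 (-0.34, adjusted p = 0.0541). Espl1, the gene of separase, was called in no comparison, at 16.7 to 23.8 FPKM.

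**Figure D4:**
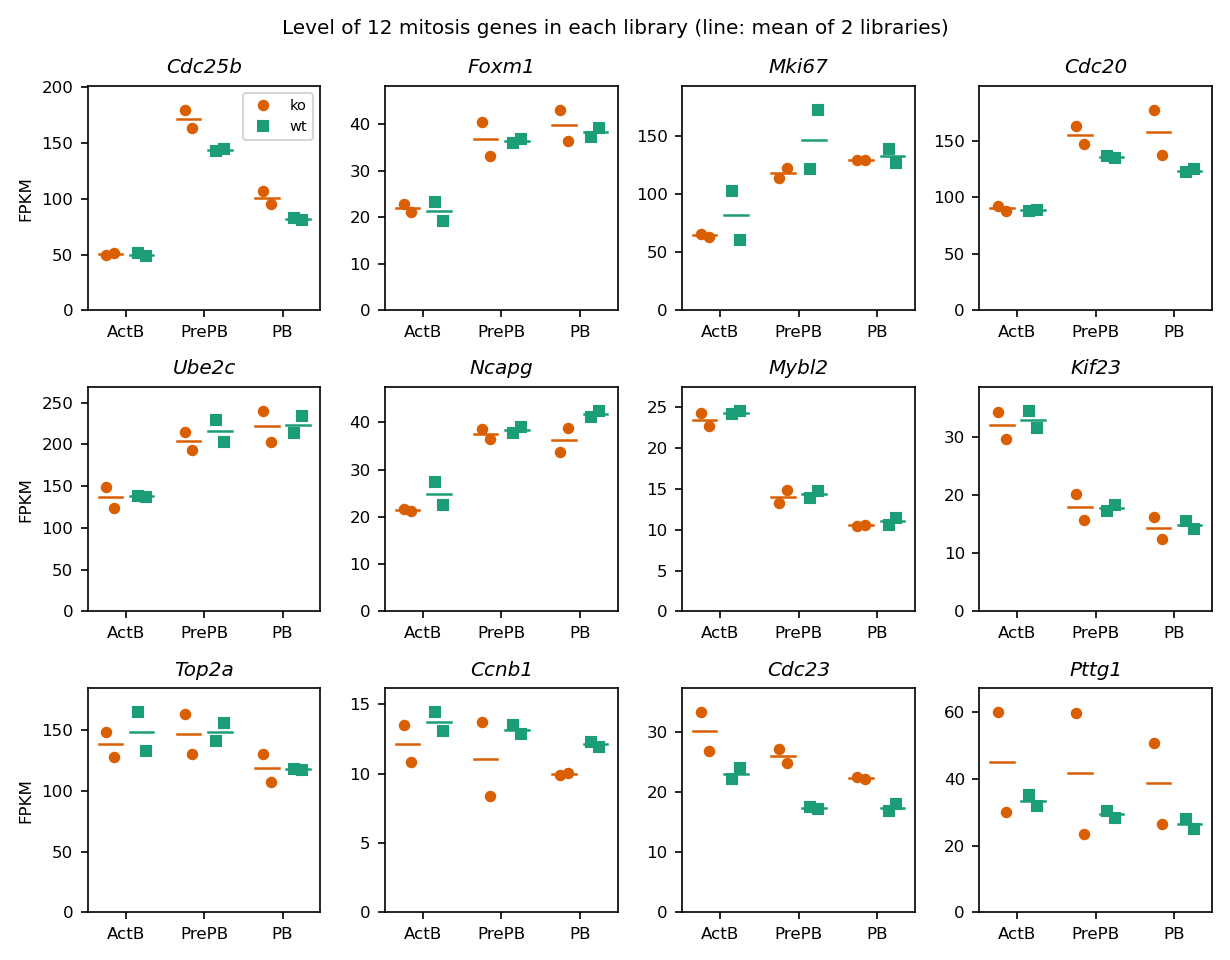
FPKM of 12 mitosis genes in each library by population, with ko circles left of wt squares and a line at the mean of 2 libraries; each axis starts at 0. Cdc25b peaks in PrePB, Foxm1, Mki67, Cdc20, Ube2c and Ncapg are lowest in ActB, Mybl2 and Kif23 are highest in ActB, Top2a and Ccnb1 overlap between populations over the genotypes together, and Pttg1 is high in ko replicate 1 only.

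The split between higher and lower genes depended on how libraries were set to a common scale. Equal totals moved the median of all genes in PB against ActB to -0.28 in ko and -0.38 in wt, and in PrePB against ActB to -0.16 in ko and -0.25 in wt. For PB against ActB, quantile normalization gave 9 higher and 10 lower of the 50 in ko (29.4% and 34.3% of all genes). In wt it gave 7 higher and 11 lower (29.4% and 33.4% of all genes). In PrePB against ActB equal totals gave 6 higher and 7 lower in ko (21.5% and 36.2% of all genes). In wt it gave 6 higher and 11 lower (18.9% and 42.5% of all genes). Relative to the median of all genes, Cdk1 in wt was 0.51 above that median as deposited and 0.48 above it with equal totals, and Ube2c 0.71 and 0.66. The change of Cdk1 itself was 0.09 in each genotype with equal totals and was no longer called, nor were those of Cdc25c and Ncaph in either genotype, of Anln in ko, or of Cdc20 (0.07), Mki67 (0.33) and Ube2c (0.28) in wt.

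Under all 3 scalings Cdc25b, Foxm1 and Ncapg were higher in PB than in ActB in ko and wt, and Mki67, Cdc20 and Ube2c in ko. Mybl2, Incenp, Cenpa, Kif20a, Kif23, Racgap1 and Cdc23 were lower in both genotypes under all 3, and Cdca8 and Ndc80 in ko. In PrePB against ActB, Cdc25b, Foxm1, Ncapg, Mki67, Cdc20 and Ube2c were higher in both genotypes under all 3. Cdc25b and Mybl2 were lower in PB than in PrePB under all 3. Which scaling is nearest to transcripts per cell was not tested.

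**Figure D5:**
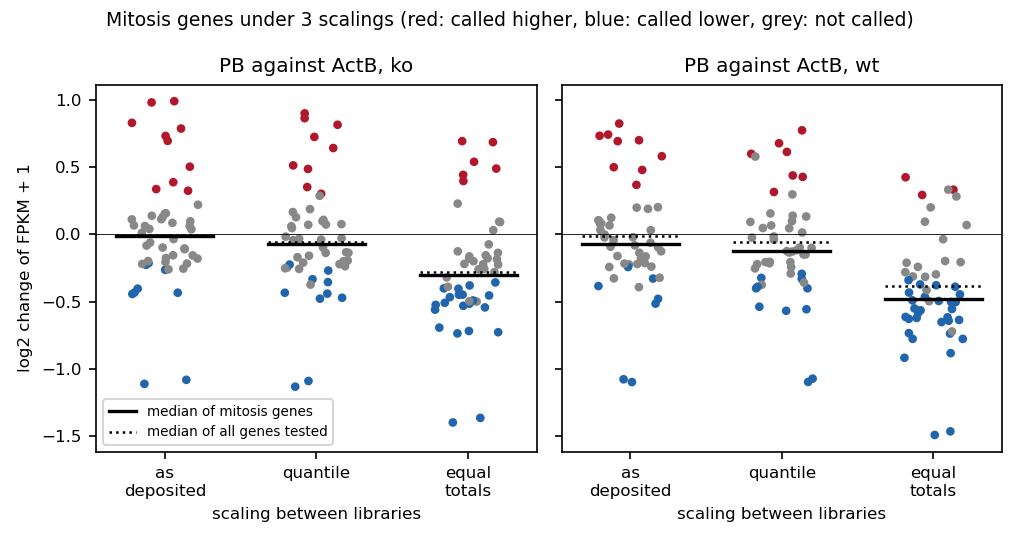
Each point is the log2 change of FPKM + 1 of a mitosis gene in PB against ActB, in ko (left) and wt (right), under 3 scalings; red and blue mark genes called higher and lower, the solid line the median of the 50 genes and the dotted line that of all genes tested. With equal totals both medians fall together, to -0.30 and -0.28 in ko and to -0.48 and -0.38 in wt.

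Leaving out wt replicate 1, the replicate with Xist, from all 3 populations left 1 wt library in each, whose spread is then taken from the other groups. In that fit fewer mitosis genes were called in wt between populations. No share of all genes is given beside this, so the loss is not read as particular to the mitosis genes.

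The comparison of ko with wt asks whether loss of Mzb1 changed the mitotic programme. No mitosis gene was called, in ActB (0.0542% of all genes called), in PrePB (0.117%) or in PB (0.407%), with limma as the only tool run; 1, 4 and 5 of the 50 (2%, 8% and 10%) had an unadjusted p below 0.05 in ActB, PrePB and PB, against 8.07%, 15% and 16% of all genes. The 95% interval of the ko change lay within 1.5-fold for 47 genes (94%) in ActB, 46 (92%) in PrePB and 47 (94%) in PB, against 81.3%, 74.9% and 74.3% of all genes. The median ko change of the 50 genes was -0.03 in ActB, -0.03 in PrePB and 0.00 in PB. The difference between genotypes in each step was tested as an interaction: no mitosis gene was called for PrePB against ActB (0.0361% of all genes called), for PB against PrePB (0%) or for PB against ActB (0.0452%), and 0, 0 and 1 genes had an unadjusted p below 0.05, against 3.57%, 2.46% and 4.15% of all genes. The 1 gene was Cdc25b, with a PB against ActB change larger in ko than in wt by 0.28 (SE 0.12, adjusted p = 1.00).

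The 3 mitosis genes with the lowest p between genotypes were Cdc23, Cdc25b and Cdc20, all higher in ko. Cdc23 measured 33.3 and 26.9 FPKM in ko and 22.2 and 24.0 FPKM in wt ActB, 27.2 and 24.8 in ko and 17.5 and 17.2 in wt PrePB, and 22.6 and 22.2 in ko and 16.8 and 18.0 in wt PB. Every ko library was above every wt library of its population. The log2 change was 0.36 in ActB (SE 0.10, limma adjusted p = 0.433), 0.56 in PrePB (SE 0.10, adjusted p = 0.0828) and 0.34 in PB (SE 0.10, adjusted p = 0.157). In PrePB it passed the threshold without ActB ko replicate 1 or 2, at 0.56 in each. In those fits the difference between the ActB ko libraries, 33.3 and 26.9 FPKM, no longer entered the estimate of the spread. It also passed with a term for the pattern of the low values (0.66, limma adjusted p = 0.0425). Cdc23 lies on chromosome 18, as does Mzb1, with 15 protein-coding genes between them in the RefSeq order of GRCm38.p6. Cdc25c and Kif20a, with 13 and 16 such genes between them and Mzb1, had ko changes of -0.04, -0.09 and -0.12, and of -0.02, 0.04 and 0.05, in ActB, PrePB and PB, with no adjusted p below 0.668.

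Cdc25b was 0.30 higher in ko than in wt PB (SE 0.08, limma adjusted p = 0.129) and 0.25 higher in PrePB (adjusted p = 0.218), with no overlap in either, and 0.02 higher in ActB, where the libraries overlapped. Cdc20 was 0.34 higher in ko than in wt PB (SE 0.11, adjusted p = 0.177). Among the B cell markers, Cd79a measured 1084 and 981 FPKM in ko and 586 and 741 FPKM in wt PB and Pax5 7.24 and 5.92 FPKM in ko and 2.02 and 2.76 FPKM in wt PB; their part in the values of Cdc25b and Cdc20 was not tested.

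Replicates of ko differed from each other in these genes more than those of wt. Replicate 1 was above replicate 2 for 48 of the 50 genes in ActB ko, 45 in PrePB ko and 43 in PB ko, with median log2 differences of 0.22, 0.20 and 0.16, and for 37, 23 and 24 of the 50 in ActB, PrePB and PB wt, with medians of 0.09, -0.02 and -0.01. Over all genes tested that median lay between -0.03 and -0.01 in every group. Pttg1, the gene of securin, which holds separase inactive and was looked at after its values were seen, showed this most: it measured 60.0, 59.9 and 50.6 FPKM in ko replicate 1 of ActB, PrePB and PB and between 23.4 and 35.0 FPKM in the other 9 libraries. Its ko change in PB was 0.46 with an SE of 0.42, the largest SE of the 50 genes. In ActB and PrePB the replicates of ko also differed in the pattern of the low values, and in PB they did not; its part was not tested.

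Genes next to the mitotic programme were read from 3 further lists. Of 102 other mitosis genes, 101 were tested, and 25 were higher and 28 lower in ko PB than in ActB, and 24 higher and 30 lower in wt. That is 52.5% of them in ko and 53.5% in wt, against 62.2% and 62% of all genes. With equal totals it was 11 higher and 51 lower in ko and 7 higher and 58 lower in wt. Of all genes, 21.9% were then higher and 46.3% lower in ko, and 19.2% higher and 52.4% lower in wt. The higher ones with the lowest p in wt were Hjurp, the chaperone that loads Cenpa, Lin54, a MuvB subunit, and Cdc16, another subunit of the anaphase-promoting complex, with log2 changes of 1.33, 1.08 and 0.75 in ko and 1.28, 1.08 and 0.88 in wt. The lower ones were Kif15, a spindle kinesin, and the cohesin regulators Pds5b and Pds5a, with log2 changes of -0.98, -0.78 and -0.60 in ko and -1.26, -0.88 and -0.75 in wt. Hjurp averaged 23.3 FPKM in ko and 22.0 FPKM in wt PB, against 8.67 FPKM in ko and 8.54 FPKM in wt ActB. In wt PB against PrePB, Cdc16 (0.38) was higher and Kif15 (-0.53) and Pds5b (-0.45) were lower.

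Of 52 DNA replication genes, 11 were higher and 25 lower in ko PB than in ActB, and 9 higher and 26 lower in wt. Of all genes, 31.2% were higher and 30.9% lower in ko, and 31% each way in wt. With equal totals 3 were higher and 34 lower in ko and 2 higher and 38 lower in wt, where 46.3% of all genes were lower in ko and 52.4% in wt. Higher as deposited were the flap endonuclease gene Fen1, the licensing factor gene Cdt1 and Dbf4, which activates the kinase that fires origins, with log2 changes of 1.01, 1.07 and 0.37 in ko and 0.94, 1.06 and 0.47 in wt. Lower were Pold1, the catalytic subunit of polymerase delta, Rpa1, of the single-strand binding complex, and Uhrf1, which maintains DNA methylation, with log2 changes of -1.33, -1.02 and -0.77 in ko and -1.39, -1.05 and -0.85 in wt. In PB against PrePB, 1 of these genes was higher and 9 lower in ko, and 0 higher and 13 lower in wt (4.24% of all genes lower in ko and 3.7% in wt), among them Dut (-0.57 in wt), Rpa1 (-0.44) and Tk1 (-0.63).

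Of 19 genes of CDK inhibitors, D cyclins and related brakes, 17 were tested, and 6 were higher and 3 lower in ko PB than in ActB, and 9 higher and 4 lower in wt (52.9% called in ko and 76.5% in wt, against 62.2% and 62% of all genes). With equal totals it was 6 higher and 7 lower in ko and 5 higher and 8 lower in wt. Under that scaling 21.9% of all genes were higher and 46.3% lower in ko, and 19.2% and 52.4% in wt. Cdkn2a, Cdkn2b and Cdkn2c, genes of the INK4 inhibitors that hold Cdk4 and Cdk6, were higher in PB than in ActB, with log2 changes of 0.90, 2.87 and 0.95 in ko and 2.91, 3.26 and 0.86 in wt. A value per gene symbol does not separate the transcripts of Cdkn2a, so its INK4 transcript was not measured alone. Cdkn2d, the gene of the remaining INK4 inhibitor, was lower, with log2 changes of -1.50 in ko and -1.57 in wt, as was the antiproliferative gene Btg1, with log2 changes of -1.7 in ko and -1.71 in wt. Ccnd3, a D cyclin gene, was also lower, with log2 changes of -2.21 in ko and -1.86 in wt, at 24.5 FPKM in ko and 23.4 FPKM in wt PB, against 118 FPKM in ko and 87.9 FPKM in wt ActB. In wt PB against PrePB, Cdkn2a (0.84), Cdkn2b (0.89) and Ccng1 (0.43) were higher and Rbl1, a subunit of DREAM (-0.42), was lower. Cdkn2a was the only gene of the 3 lists called between genotypes. In PB it averaged 91.9 FPKM in ko and 191 FPKM in wt, a log2 change of -1.06 (limma adjusted p = 0.0292), and its change in PB against ActB was smaller in ko than in wt by the interaction test (-2.01, limma adjusted p = 0.0128). The interaction value also holds the difference between genotypes in ActB, where the fitted level was higher in ko than in wt.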

How the data were processed

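RNA of 12 sorted mouse B cell populations was sequenced from poly(A)-selected, stranded libraries, per the labels' protocols. Per the submitters' processing notes, the tools were TopHat2 2.0.14, Cuffnorm 2.2.1, Cufflinks 2.2.1, Cuffdiff and bcl2fastq 2.17.1.14 and 0.3.1, and the genome build was mm9. The annotation, the scaling between libraries and the strand setting are not given in the sources used here. The authors deposited FPKM per gene symbol and library, which were used as deposited. FPKM holds no read counts, so no depth, counting interval or count test is given; the 2 libraries per group and their spread limit the precision.

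Values were analysed as log2(FPKM + 1), on which folds of low genes are understated, over the 11069 genes that reached 1 FPKM in 2 or more libraries. limma 3.58.1 (trend on mean level; R 4.3.3) was fitted with 6 group coefficients to all 12 libraries, with 6 residual and 4.49 prior degrees of freedom, and two-sided p-values were Benjamini-Hochberg adjusted over all genes tested. The script was tested on simulated data. Scaled totals left out 1280 small RNA genes. Python 3.11.15 with matplotlib 3.10.9 drew the plots. The alternatives were another pseudocount, other filters, other scalings, a replicate block, a correlation within replicate numbers, a term for the pattern of the low values, and fits with fewer libraries.

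The members and lists were chosen with earlier results of these data known. Genes named with full values were Cdk1, Ccnb1, Foxm1, Top2a and Mki67, in each role the gene with the lowest p in wt PB against ActB and the most abundant gene, and the 3 genes with the lowest p between genotypes; others named were chosen after their values were seen. Promoter windows and gene order came from RefSeq (GRCm38.p6), which was not joined to coordinates of the mm9 files.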

Additional observations from a re-analysis of the deposited data

How the results depend on the processing

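The number of mitosis genes called stayed within 1.5 times the reported one with no filter, with a filter of 5 FPKM, with a pseudocount of 0.1, with quantile normalization and with a correlation estimated within replicate numbers. With equal totals 4 genes were called in wt PB against PrePB and 33 in wt PB against ActB. The names of the deposited tables carry a second number that each replicate of a genotype shares across the 3 populations, but the labels do not say that it marks a mouse. Differences between replicates correlated across populations of one genotype at 0.29, 0.11 and 0.10 in ko and at 0.05, 0.24 and 0.32 in wt. Between genotypes they correlated at -0.11 to 0.07. Xist in wt and Pttg1 in ko also followed the replicate number across the 3 populations. The reported p-values come from a fit that does not pair replicates. The fit with a replicate block was kept as an alternative and called 4 genes in PB against PrePB in ko and 4 in wt. With a term for the pattern of the low values, 1 gene (Cdc23) was called between genotypes in PrePB, and 1 also among the 8 libraries of one pattern alone, a fit chosen after seeing the data. Without wt replicate 1 in all 3 populations, 9 genes were called in wt PrePB against ActB, 0 in wt PB against PrePB, 8 in wt PB against ActB and 1 in ko PB against PrePB. With only the groups compared in the fit, 8 genes were called in ko PrePB against ActB, 1 in ko PB against PrePB and 1 in wt PB against PrePB. No share of all genes stands beside the counts of this section, so they are not read as particular to the mitosis genes. The cause of the shifts in these counts was not tested. The last 2 settings also held fewer libraries.

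Leaving out 1 library at a time gave 0 to 1 genes between genotypes in PrePB and 0 in ActB and PB, 14 to 17 in ko and 12 to 18 in wt PB against ActB, 10 to 14 in each genotype in PrePB against ActB, and 1 to 2 in each in PB against PrePB. No interaction was called in any of these fits. Over the genes named by rule, 5010 results kept their side of the threshold, 87 lost the call and 52 gained it. No called change took the other direction, whereas 350 changes called in neither fit had another sign. With 2 libraries per group and no read counts, small differences of scarce transcripts are not resolved.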
